A study of Rattus norvegicus with 19 samples.

Results

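A set of 8 genes of the rat interval that corresponds to human 16p11.2 had low levels or almost no reads in hippocampal RNA. The most reads were those of *Spn*, 83 to 142 in each wt library. These genes are 8 of the 32 genes of the interval in the count tables, which held 32623 genes. They were chosen by symbol as interval genes of low level, or too low to be tested, so the low level itself is what selected them and is described without a test. The genotype contrasts were not part of the choice, although results of these data were known when it was made. The genes are *Spn*, *Gdpd3*, *Tbx6*, *Zg16*, *LOC308990*, *LOC102552638*, *AABR07005779.6* and *AABR07005779.7*.

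RNA was sequenced from the hippocampus of male Sprague Dawley rats in 19 libraries of 4 genotypes. The 6 wt rats have 2 copies of the interval, the 4 Del/+ rats have 1 copy, the 5 Dup/+ rats have 3 copies, and the 4 Del/Dup rats have 2 copies, placed as a deleted and a duplicated chromosome 1. The rearrangements between *Sult1a1* and *Spn* were made with CRISPR/Cas9 in embryos and kept as a deletion line and a duplication line, so each genotype stands for 1 engineered allele or pair of alleles on an outbred background. The rats were littermates and adult, with no further age given in the labels, and no treatment is stated.

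As background, a gene that is lost or gained with its chromosome segment usually changes its RNA in proportion to the number of copies, wherever it is transcribed at all. *Spn* encodes leukosialin (CD43), a heavily sialylated mucin on the surface of leukocytes. *Gdpd3* encodes a lysophospholipase D that makes lysophosphatidic acid, *Tbx6* a T-box transcription factor of the presomitic mesoderm, and *Zg16* a lectin-like protein of zymogen granules and intestinal mucus. In RefSeq, the gene identifier of *LOC308990* is now named *C1h16orf54* and that of *LOC102552638* is now *Cdiptos*, the gene next to *Cdipt*, which encodes a phosphatidylinositol synthase. No role is given here for *C1h16orf54* or *Cdiptos*, and the 2 genes named for the contig AABR07005779 had no match in RefSeq. The genes with a known role are better known from blood, embryo, gut or pancreas than from neurons.

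The RefSeq table of promoters held 3 of the 8 genes, and the 250 bases before their starts are shown as the sequence in front of members at the edge of detection. The capitals mark CG dinucleotides. Positions are those of the RefSeq assembly GRCr8, which is not the Rno6 build of the count tables: *Gdpd3* chr1:190803803-190804052 (plus strand), *Tbx6* chr1:190818979-190819228 (plus strand) and *Cdiptos* chr1:191013276-191013525 (minus strand).
Gdpd3: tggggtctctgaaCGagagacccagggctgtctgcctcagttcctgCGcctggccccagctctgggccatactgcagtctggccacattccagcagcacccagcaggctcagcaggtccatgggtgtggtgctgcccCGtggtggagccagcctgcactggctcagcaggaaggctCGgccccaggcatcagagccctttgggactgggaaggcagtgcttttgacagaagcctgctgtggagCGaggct
Tbx6: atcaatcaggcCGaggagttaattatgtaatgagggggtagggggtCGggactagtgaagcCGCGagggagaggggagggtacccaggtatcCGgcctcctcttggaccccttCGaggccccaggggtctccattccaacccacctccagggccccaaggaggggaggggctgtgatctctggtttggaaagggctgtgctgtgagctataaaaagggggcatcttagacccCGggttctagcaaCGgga
Cdiptos (LOC102552638): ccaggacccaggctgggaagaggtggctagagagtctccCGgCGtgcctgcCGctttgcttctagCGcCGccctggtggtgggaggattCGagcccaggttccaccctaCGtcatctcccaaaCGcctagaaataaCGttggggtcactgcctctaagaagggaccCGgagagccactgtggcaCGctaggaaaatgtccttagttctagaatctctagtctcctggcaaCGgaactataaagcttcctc
The printed bases held 5 CG dinucleotides for *Gdpd3*, 8 for *Tbx6* and 12 for *Cdiptos*. Over the whole 300 bases of the table, which reach 50 bases past the start, the windows held 7, 9 and 14, against a median of 7 over 33469 windows of the table. The letters TATAAA, searched on both strands, occurred in the windows of *Tbx6* and *Cdiptos* and in 14.2% of all windows. With fewer than 80% of the members matched, a comparison of base composition between the members and the other interval genes would be void and is not given, and a match of letters is only a description.

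The members lay in the lower part of the interval's levels. Each level is in CPM, the reads of a gene per 1e6 reads of its library after TMM scaling in edgeR. No gene length enters it, so the order is one of reads and not of transcripts. The mean wt level was 3.37 CPM for *Spn*, 0.821 for *LOC308990*, 0.765 for *AABR07005779.7* and 0.473 for *AABR07005779.6*, followed by 0.256 for *Tbx6*, 0.0886 for *LOC102552638*, 0.0463 for *Gdpd3* and 0.0194 for *Zg16*. *Pagr1*, at 4.40 CPM, was the interval gene next above *Spn*, and *Qprt* (1.497 CPM) and *Kif22* (1.24 CPM) lay between *Spn* and *LOC308990* although they are not among the 8. The wt ranges of *LOC308990* and *AABR07005779.7*, 0.630 to 0.955 and 0.519 to 1.44 CPM, overlapped, and so did those of *AABR07005779.7* and *AABR07005779.6*. The wt libraries of *Tbx6* were all below those of *AABR07005779.6* and overlapped those of *LOC102552638*, and the ranges of *LOC102552638*, *Gdpd3* and *Zg16* overlapped each other. A gene was tested where at least 4 libraries exceeded 0.378 CPM, which left 15440 of the 24345 genes with a read and 28 of the 32 interval genes. *Spn* exceeded it in 19 libraries, *AABR07005779.7* in 18, *LOC308990* in 16 and *AABR07005779.6* in 13. *Tbx6* stood just outside with 3 libraries, and *Gdpd3*, *Zg16* and *LOC102552638* passed it in 0 libraries, so 4 of the 8 members could be tested with this filter. A fit without the filter, and DESeq2, took in all 8. By mean wt level, *Spn* lay above 24.5% of the tested genes and above 52.1% of the genes with a read.

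The libraries held 16191192 to 38760645 reads in genes. Alignments tallied as not unique, called the multi-mapped share, made up 40.1% to 50.5% of all that was tallied in each wt and Dup/+ library. The share was 41.6% in Del/+ replicate 4, but 57.8% to 76.3% in Del/+ replicates 1 to 3 and in the 4 Del/Dup libraries, so it moves together with the genotype. A read may be tallied more than once, so it is not a share of reads. The labels of wt replicate 5 contradict each other, since its genotype entry reads Dup/+, and the library was kept with wt. Hippocampal markers were high, with a sum of 6612 to 8698 CPM over 12 neuronal genes. Of these 12, 0 were called by edgeR in any comparison, with 6 at an unadjusted p under 0.05 in Del/+ against wt, 1 in Dup/+ and 4 in Del/Dup. DESeq2 called *Slc17a6* (0.82, adjusted p = 0.0347) and *Camk2a* (-0.28, adjusted p = 0.0249) in Del/+ and *Slc17a7* (-0.24, adjusted p = 0.0366) in Del/Dup. The sum of 10 choroid plexus genes reached 37.0 CPM in wt (lowest 4.60), 1302 in Del/+ (lowest 5.95), 420 in Dup/+ (lowest 7.39) and 1244 in Del/Dup (lowest 43.6), with 1 gene of the list at 0 in each group. Of its 9 tested genes 0 were called by edgeR in any comparison, with 9 at an unadjusted p under 0.05 in Del/+ against wt, 2 in Dup/+ and 9 in Del/Dup, while DESeq2 called 5 in Del/+, 0 in Dup/+ and 4 in Del/Dup. Over the 24345 genes with a read, DESeq2 called 2.43% in Del/+, 0.267% in Dup/+ and 0.764% in Del/Dup. The sum of 6 red cell genes was 119 to 163 CPM in wt, 105 to 165 in Del/+, 134 to 165 in Del/Dup and 182 to 247 in Dup/+, with none at 0. Of 5 tested red cell genes, 1 of which has 2 entries in the files, edgeR called 3 entries higher in Dup/+ against wt (DESeq2 4), 3 lower in Del/+ than in Dup/+ and 3 in the slope on copies, and 0 in Del/+ or Del/Dup against wt by either tool or at an unadjusted p under 0.05. The part of both lists in the results below was not tested. In whole tissue, fewer cells of a type and less RNA per cell cannot be told apart.

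Among the 4 tested members, 2 fell in Del/+ against wt, *Spn* and *LOC308990*, where 0.771% of all tested genes were called (edgeR quasi-likelihood test, adjusted p under 0.05 over all genes). One member, *Spn*, rose in Dup/+ against wt, with 0.272% of all genes called. In Del/Dup against wt 0 of 4 were called by edgeR, 0 at an unadjusted p under 0.05 and 0 by DESeq2, with 0.0907% of all genes called. Between Del/+ and Dup/+, a contrast of 1 copy against 3, 3 of 4 were lower in Del/+, namely *Spn*, *LOC308990* and *AABR07005779.7*, with 0.784% of all genes called. The same 3 rose with the number of copies in a fit of the copy number as a slope, with 0.576% of all genes called. The contrasts share libraries and are not independent of each other.

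**Figure D1:**
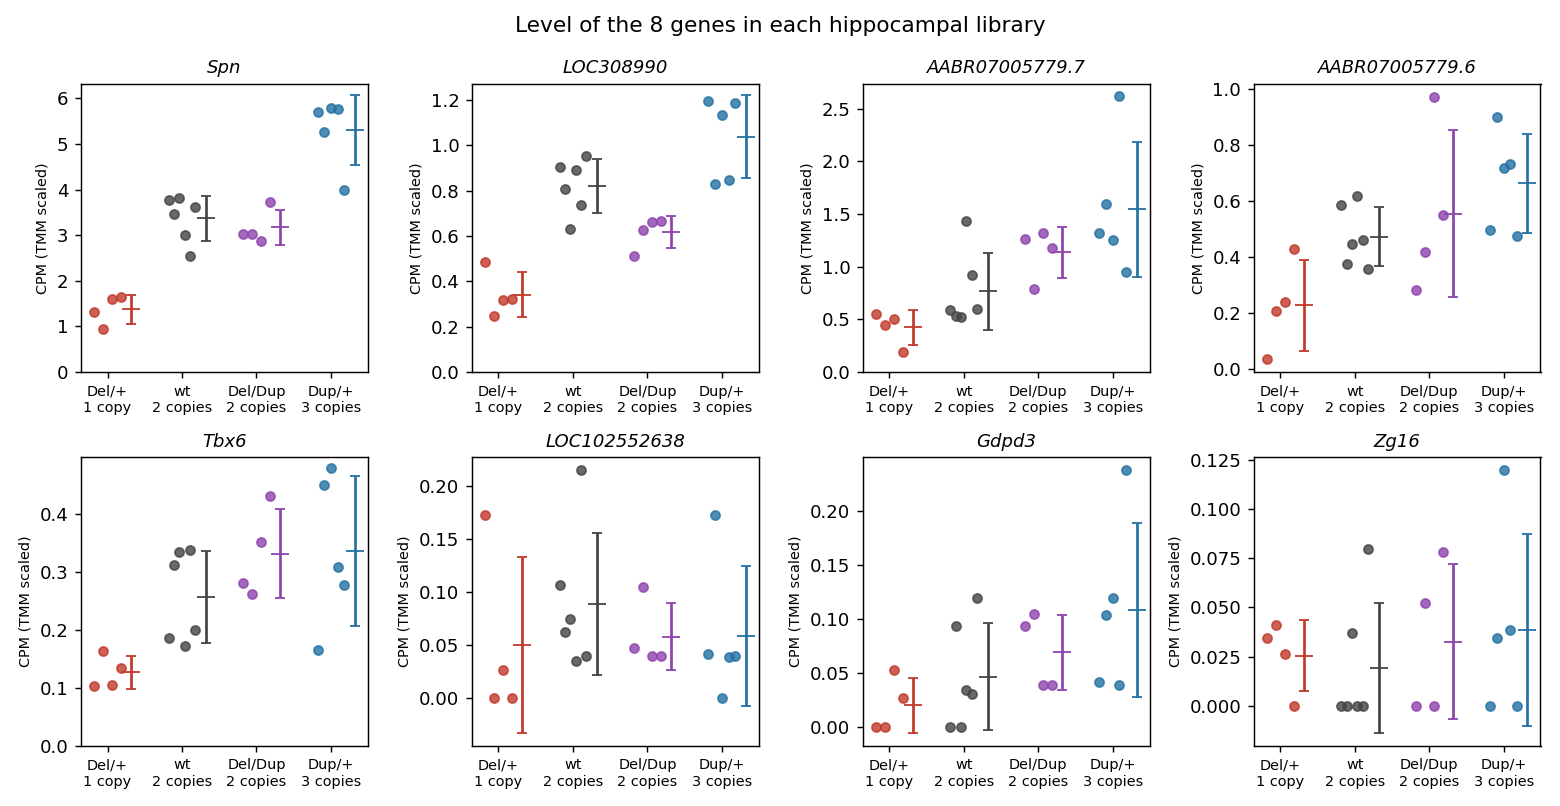
Level of each of the 8 genes (vertical axes, TMM-scaled CPM, a separate scale for each gene) in the 19 libraries, by genotype and number of copies. Points are libraries, and the bar beside them is the mean ± SD of the group. The 4 Del/+ libraries of *Spn* lie between 0.943 and 1.64 CPM, below every wt library, and its 5 Dup/+ libraries between 3.99 and 5.79 CPM, above every wt library.

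*Spn* gave the clearest separation of the genotypes. In wt its level ranged from 2.55 to 3.81 CPM with a median of 3.54. In Del/+ it was 1.31, 0.943, 1.60 and 1.64 CPM in replicates 1 to 4. In Dup/+ it was 5.69, 5.26, 5.79, 5.77 and 3.99 CPM in replicates 1 to 5. The Del/+ libraries were all below and the Dup/+ libraries all above the wt range, with Dup/+ replicate 5 close to it. In Del/Dup it was 3.04, 3.03, 2.88 and 3.72 CPM in replicates 2 to 5, all inside the wt range. The means were 3.37 ± 0.497 CPM in wt (SD, n = 6), 1.38 ± 0.323 in Del/+ (n = 4), 5.30 ± 0.763 in Dup/+ (n = 5) and 3.17 ± 0.375 in Del/Dup (n = 4).

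In the edgeR fit, *Spn* fell by 1.23 on the log2 scale in Del/+ against wt (SE 0.156, adjusted p = 9.92e-05), and the 95% interval, -1.54 to -0.92, held the -1 of a loss of 1 of 2 copies. It rose by 0.64 in Dup/+ (SE 0.134, adjusted p = 0.0445), with an interval of 0.38 to 0.90 that held the 0.58 of 3 copies over 2. Its slope was 0.90 log2 units per copy (SE 0.0883, adjusted p = 7.65e-07). Del/Dup and wt differed by -0.08 (95% interval -0.38 to 0.21). The call in Dup/+ was narrow: the adjusted p exceeded 0.05, between 0.0530 and 0.145 with a change of 0.57 to 0.68, when any of 14 single libraries was left out. These were each of the wt replicates 1 to 6, Dup/+ replicates 1 to 4, Del/Dup replicates 2 to 4 and Del/+ replicate 1. With wt replicate 5 counted as Dup/+, as its genotype field reads, the change was 0.44 (adjusted p = 0.623). That library had 2.55 CPM of *Spn*, the lowest level in wt and below every Dup/+ library. DESeq2 called *Spn* in Dup/+ as well (0.65, adjusted p = 0.00215).

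*LOC308990* followed the loss of a copy, while its gain did not pass the test. In wt its level ranged from 0.630 to 0.955 CPM with a median of 0.850. In Del/+ it was 0.484, 0.246, 0.316 and 0.322 CPM in replicates 1 to 4, from 14, 6, 12 and 12 reads. All 4 values were below the wt range. In Dup/+ it was 1.20, 0.830, 1.13, 0.846 and 1.19 CPM in replicates 1 to 5, with 3 libraries above the wt range and 2 inside it. In Del/Dup it was 0.514, 0.628, 0.662 and 0.666 CPM in replicates 2 to 5, with 2 libraries just below the wt range and 2 at its low end. The log2 change in Del/+ was -1.11 (SE 0.187, adjusted p = 0.00456). In Dup/+ it was 0.31 (SE 0.165, adjusted p = 0.601), and its 95% interval, -0.02 to 0.63, held both 0 and 0.58, so a gain in proportion to the copies is not shown to be absent. In Del/Dup it was -0.37 (SE 0.186, adjusted p = 0.336).

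The 3 Del/+ libraries of high multi-mapped share cannot be set against wt libraries of the same kind. With a term for that share in the fit, *Spn* in Del/+ was -1.01 (adjusted p = 0.0874) and *LOC308990* was -1.18 (adjusted p = 0.109), so neither was called. Among the libraries of low share, a comparison added after the data were seen, Del/+ replicate 4 alone gave -1.01 against wt for *Spn* and -1.18 for *LOC308990*. Both this comparison and the fit with the share term rest on that 1 Del/+ library, so they are 1 check and not 2, and a missed threshold says little about stability. Within the libraries of high share, where Del/+ replicates 1 to 3 have 1 copy and the 4 Del/Dup libraries have 2, *Spn* differed by -1.24 (SE 0.194, adjusted p = 0.0690) and *LOC308990* by -0.71 (SE 0.275, adjusted p = 0.632). Over all libraries the same contrast gave -1.14 for *Spn* (adjusted p = 0.00126) and -0.74 for *LOC308990* (adjusted p = 0.260).

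**Figure D2:**
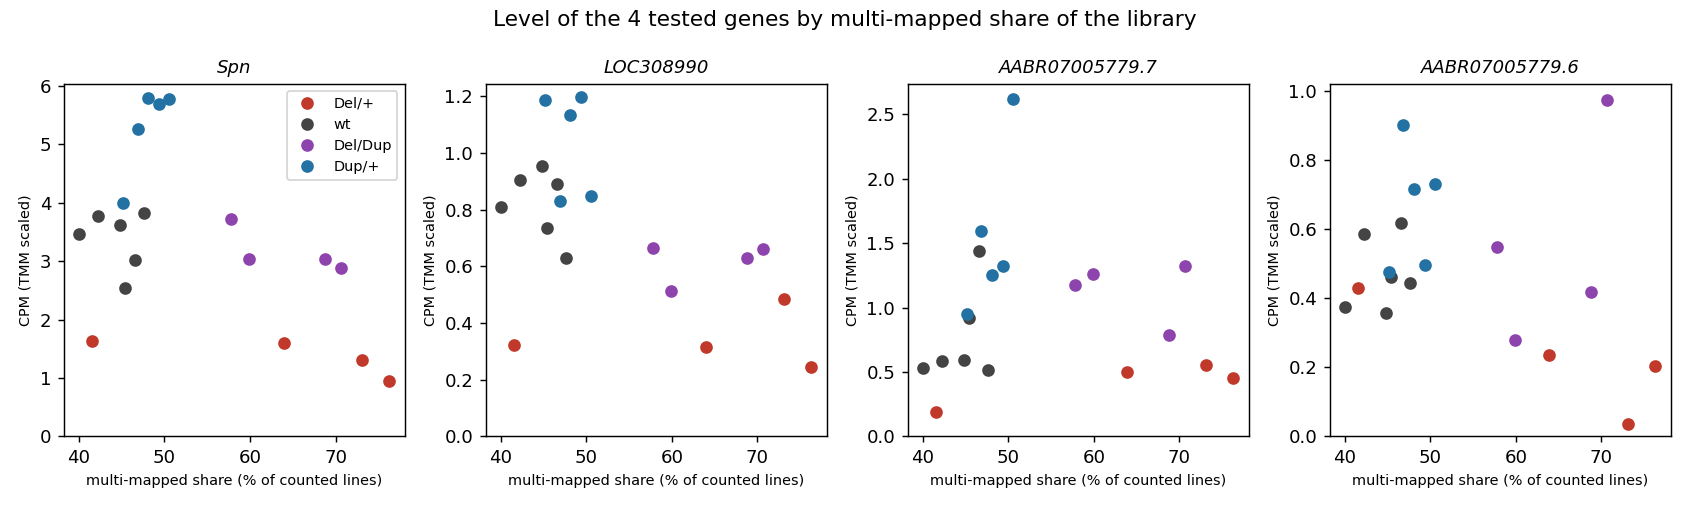
Level of the 4 tested genes (vertical axes, TMM-scaled CPM) against the multi-mapped share of the library (horizontal axes, percent of all that was tallied), 1 point per library and coloured by genotype. Del/+ replicate 4, at 41.6%, lies among the wt libraries on the horizontal axis and has 1.64 CPM of *Spn* and 0.188 CPM of *AABR07005779.7*, each below every wt library.

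*AABR07005779.7* had the highest scatter within genotypes beyond counting error of the 8 genes. In wt its level ranged from 0.519 to 1.44 CPM with a median of 0.591, and replicate 4 had 42 reads where the other wt libraries had 14 to 30. In Del/+ it was 0.553, 0.451, 0.4999 and 0.188 CPM in replicates 1 to 4, of which 3 were below the wt range. In Dup/+ it was 1.32, 1.59, 1.25, 2.62 and 0.949 CPM in replicates 1 to 5, of which 2 exceeded the highest wt library. In Del/Dup it was 1.26, 0.785, 1.32 and 1.17 CPM in replicates 2 to 5, inside the wt range but above its median. The scatter of its counts within genotypes, as a chi-square per degree of freedom that is near 1 for counting error alone, was 4.17, against 0.599 for *LOC308990*, 2.06 for *Spn* and 2.11 for *AABR07005779.6*.

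With that spread, *AABR07005779.7* passed the test only in the contrast of 1 copy with 3 and in the slope. The changes against wt were -0.77 in Del/+ (SE 0.324, adjusted p = 0.210), 0.96 in Dup/+ (SE 0.283, adjusted p = 0.279) and 0.54 in Del/Dup (SE 0.308, adjusted p = 0.387). Del/+ against Dup/+ gave -1.73 (SE 0.335, adjusted p = 0.0133), and the slope was 0.85 per copy (SE 0.170, adjusted p = 0.0175). Without Del/+ replicate 4 the contrast of Del/+ with Dup/+ was -1.496 (adjusted p = 0.0576). Without Dup/+ replicate 4 the slope was 0.71 (adjusted p = 0.0875), and without Del/+ replicate 2 it was 0.85 (adjusted p = 0.0540). With the term for multi-mapped share, Del/+ against Dup/+ gave -2.64 (adjusted p = 0.0621), the slope was 1.10 (adjusted p = 0.00313) and Del/Dup against wt turned to -0.60 (adjusted p = 0.707).

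*AABR07005779.6* had values on the same sides of wt in Del/+ and Dup/+, and no contrast passed the test. In wt its level ranged from 0.358 to 0.616 CPM with a median of 0.452. In Del/+ it was 0.0346, 0.205, 0.237 and 0.430 CPM in replicates 1 to 4, with replicate 4 inside the wt range. In Dup/+ it was 0.495, 0.899, 0.717, 0.731 and 0.474 CPM in replicates 1 to 5, with 3 libraries above the wt range. In Del/Dup it ran from 0.280 to 0.973 CPM, wider than wt on both sides. The log2 changes were -0.83 in Del/+ (SE 0.337, adjusted p = 0.195), 0.43 in Dup/+ (SE 0.303, adjusted p = 0.706) and 0.22 in Del/Dup (SE 0.327, adjusted p = 0.766), and Del/+ against Dup/+ gave -1.26 (SE 0.352, adjusted p = 0.115). The 3 Del/+ libraries below the wt range are those of high multi-mapped share, and replicate 4 is the one of low share. With the term for that share Del/+ gave -0.13 (adjusted p = 0.932), Dup/+ gave 0.43 (adjusted p = 0.670), Del/Dup gave 1.32 (adjusted p = 0.391), and the contrast of 1 copy with 3 gave -0.55 (adjusted p = 0.708). The value for Del/+ again rests on replicate 4 alone. Within the libraries of high share, Del/+ against Del/Dup gave -1.43 (SE 0.481, adjusted p = 0.556).

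*Tbx6*, the T-box factor, had 3 to 13 reads in a library. In wt its level ranged from 0.171 to 0.338 CPM with a median of 0.255. In Del/+ it was 0.104, 0.164, 0.105 and 0.134 CPM in replicates 1 to 4, all below the wt range. In Dup/+ it was 0.165, 0.450, 0.478, 0.308 and 0.277 CPM in replicates 1 to 5, on both sides of the wt range. In Del/Dup it was 0.280, 0.262, 0.350 and 0.431 CPM in replicates 2 to 5, of which 2 were above the wt range. The mean of 0.127 CPM in Del/+ was 0.130 CPM below wt, and a two-sided exact permutation test of the libraries gave p = 0.0238, or 0.0714 adjusted over the 3 contrasts of the gene with wt, where the smallest p possible was 0.00476. An edgeR fit without the filter on low counts gave -0.73 for *Tbx6* in Del/+ against wt (adjusted p = 0.225). Between Del/+ and Dup/+ it gave -1.02 (adjusted p = 0.160). In RefSeq the gene overlaps *Ppp4c*, which had 29.2 CPM in wt and 14.5 CPM in Del/+. Whether the counting used the strand is not given in the sources used here, and without it reads from the overlap cannot be told apart.

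*Gdpd3*, *LOC102552638* and *Zg16* were at the edge of detection. *Gdpd3*, the lysophospholipase D, had 0 to 3 reads in each wt library, 0, 0, 2 and 1 in Del/+ replicates 1 to 4, 1, 3, 2, 1 and 6 in Dup/+ replicates 1 to 5, and 2, 2, 1 and 1 in Del/Dup replicates 2 to 5. Each Dup/+ and Del/Dup library had at least 1 read, whereas 2 wt and 2 Del/+ libraries had 0, which at 3 reads of the total allows up to 0.123 reads per 1e6 in the shallowest of them. *LOC102552638* had 1 to 7 reads in wt, 5, 0, 1 and 0 in Del/+, 1, 5, 0, 1 and 1 in Dup/+ and 1, 2, 1 and 1 in Del/Dup. *Zg16* had 13 reads in the 19 libraries together, at most 2 in any of them. The groups of all 3 genes overlapped, and 0 of their 9 exact permutation tests against wt passed, with adjusted p from 0.429 to 0.833.

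Reads were therefore summed over the libraries of each genotype and divided by the summed totals, 185277936 reads in wt, 127535887 in Del/+, 121601937 in Dup/+ and 90988732 in Del/Dup. The intervals on these ratios are exact 95% binomial intervals that cover counting error only and not the spread between rats. *Tbx6* in Del/+ was 0.495 of wt (0.262 to 0.888, from 16 and 47 reads), *LOC102552638* 0.513 (0.165 to 1.36, from 6 and 17 reads) and *Gdpd3* 0.545 (0.0931 to 2.27, from 3 and 8 reads). *Zg16* had 3 reads in each of Del/+ and wt, a ratio of 1.45 with an interval of 0.195 to 10.9. In Dup/+ the ratios were 1.30 for *Tbx6* (0.829 to 2.02), 2.48 for *Gdpd3* (0.951 to 6.89), 0.717 for *LOC102552638* (0.268 to 1.75) and 2.03 for *Zg16* (0.344 to 13.9). In Del/Dup, with 2 copies as in wt, they were 1.34 for *Tbx6* (0.825 to 2.16), 1.53 for *Gdpd3* (0.437 to 5.02), 0.599 for *LOC102552638* (0.173 to 1.69) and 2.04 for *Zg16* (0.273 to 15.2), with intervals that overlap those of Dup/+. Leaving out single libraries, which was added after the data were seen, moved 8 of 124 such ratios by more than 1.5 times. Without Del/+ replicate 1, which gave 5 of its 6 reads in Del/+, *LOC102552638* was at 0.111 of wt (0.00266 to 0.709). Without Dup/+ replicate 2, with 5 of the 8 reads, it was at 0.354 in Dup/+ (0.0664 to 1.22). *Gdpd3* in Del/+ was at 0.259 without replicate 3 (0.00583 to 1.93), which held 2 of the 3 reads. For *Zg16* a single library decided each ratio. Without wt replicate 6, which had 2 of the 3 wt reads, the ratios were 3.76 in Del/+ (0.302 to 197), 5.25 in Dup/+ (0.520 to 259) and 5.26 in Del/Dup (0.423 to 276). They were 1.17 without Dup/+ replicate 3 (0.0979 to 10.2) and 0.939 without Del/Dup replicate 5 (0.0179 to 11.7), so no direction is read for this gene. *Tbx6* stayed between 0.459 and 0.532 in Del/+. Summed, the 4 untested genes were at 0.542 of wt in Del/+ (0.338 to 0.847), 1.32 in Dup/+ (0.932 to 1.87) and 1.22 in Del/Dup (0.825 to 1.79). *Tbx6* gave 47 of their 75 reads in wt.

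**Figure D3:**
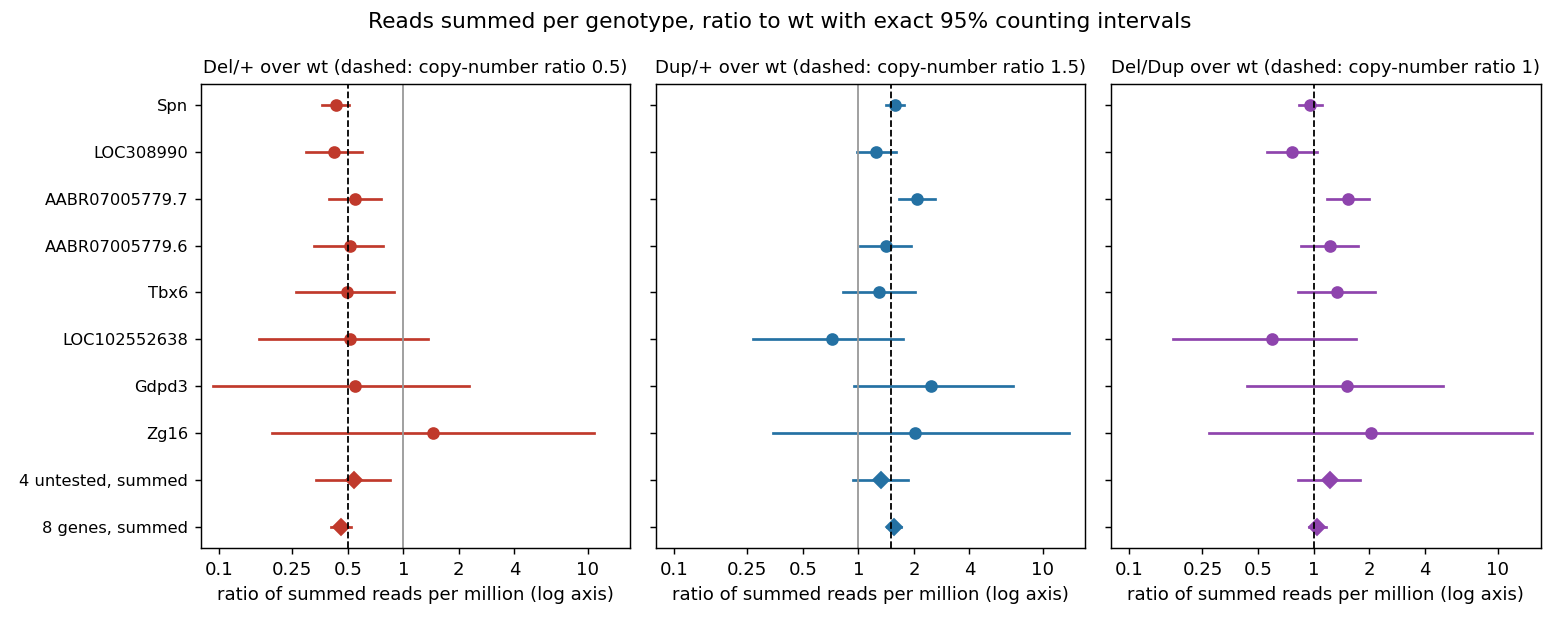
Reads summed over the libraries of a genotype, as a ratio to wt (horizontal log axes) for each gene, for the sum of the 4 untested genes and for the sum of all 8 (diamonds). Lines are exact 95% counting intervals, dashed lines are the ratios of copy numbers (0.5, 1.5 and 1) and the grey line is 1. The intervals widen from *Spn* (0.363 to 0.508 in Del/+) to *Zg16* (0.195 to 10.9).

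For the tested genes the same sums gave 0.430 of wt for *Spn* in Del/+ (0.363 to 0.508), 0.423 for *LOC308990* (0.295 to 0.596), 0.512 for *AABR07005779.6* (0.328 to 0.779) and 0.550 for *AABR07005779.7* (0.393 to 0.760). All 4 intervals held 0.5 and none held 1, by counting error alone. The counts of *Spn*, *AABR07005779.6* and *AABR07005779.7* scattered within genotypes by more than that. In the edgeR fit over libraries, *AABR07005779.6* and *AABR07005779.7* were not called in Del/+ against wt (adjusted p = 0.195 and 0.210). In Dup/+ the ratios were 1.57 for *Spn* (1.41 to 1.76), 1.25 for *LOC308990* (0.979 to 1.60), 1.40 for *AABR07005779.6* (1.02 to 1.92) and 2.08 for *AABR07005779.7* (1.66 to 2.60). The interval of *AABR07005779.7* lay above 1.5, and its ratio in Del/Dup was 1.54 (1.19 to 1.999), although its libraries scatter by more than counting error, as given above. Over all 8 genes the sum was 0.459 of wt in Del/+, 1.56 in Dup/+ and 1.05 in Del/Dup, and *Spn* gave 618 of the 1072 reads in wt.

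Set beside the 24 other genes of the interval, the tested members had medians close to theirs and a larger median SE, 0.256 against 0.0793 in Del/+, with ranges of SE that overlapped. The median log2 change of the 4 in Del/+ was -0.97, with SE from 0.156 to 0.337, while that of the other 24 was -1.01, with SE from 0.0403 to 0.225, and 24 of these 24 were called. In Dup/+ the medians were 0.53 and 0.53, and 20 of 24 were called. In Del/Dup the medians were 0.07 and -0.08, with 1 of 24 called, *Sult1a1*, the gene at the far end of the interval from *Spn* (-1.23, adjusted p = 1.12e-07). The median over all 15440 genes was 0.00 in each of the 3 contrasts. *Mapk3*, the kinase gene beside *Gdpd3*, gave -0.95 for Del/+ (adjusted p = 2.40e-07). Its value for Dup/+ was 0.57 (adjusted p = 0.000223). The pooled ratios of 10 genes outside the interval had medians of 0.973 in Del/+ (0.726 to 1.11) and 0.990 in Dup/+ (0.635 to 1.06). Of these, edgeR called *Sgf29* lower in Dup/+ against wt (-0.43, adjusted p = 0.0141) and higher in Del/+ than in Dup/+ (0.37, adjusted p = 0.0481), and *Eif3c* lower in Del/Dup (-0.27, adjusted p = 0.0129), both named here after their values were seen.

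**Figure D4:**
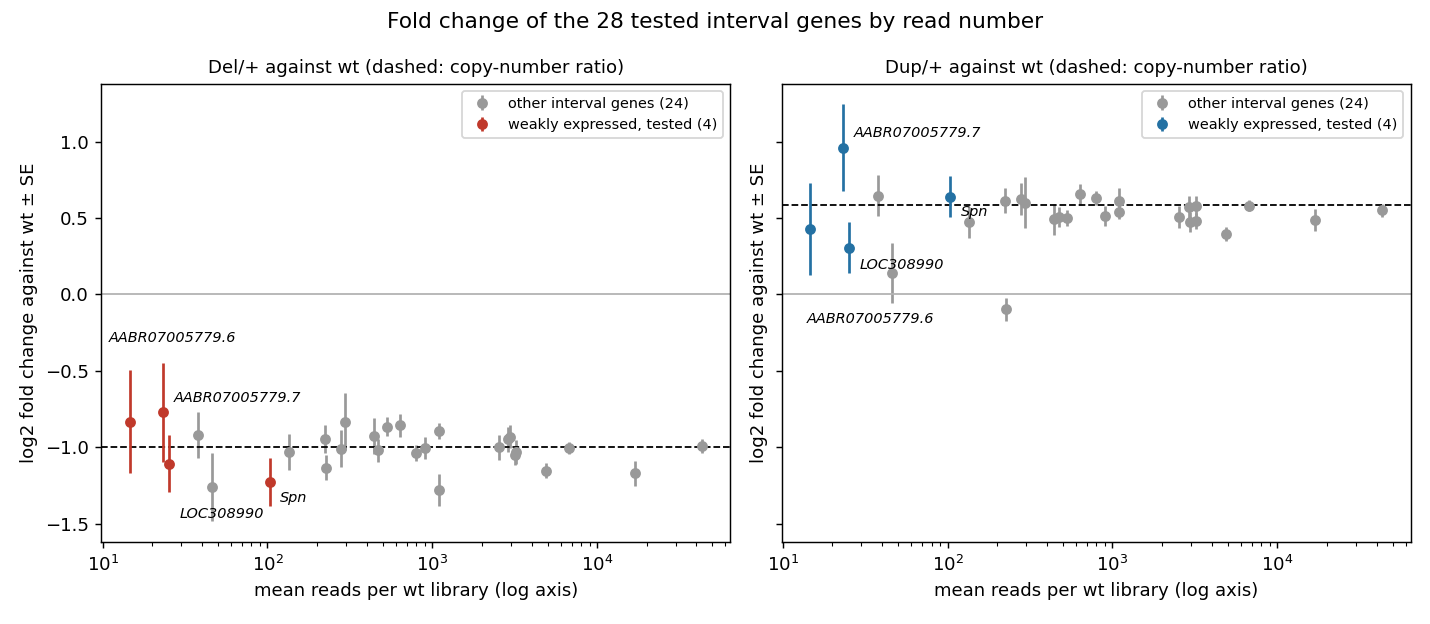
Log2 fold change against wt (vertical axis, bars are SE) of the 28 tested interval genes by their mean reads in a wt library (horizontal log axis), for Del/+ (left) and Dup/+ (right). Coloured points are the 4 tested members, grey points the 24 other genes, and the dashed line is the ratio of copy numbers. The SE is 0.337 for *AABR07005779.6* in Del/+ and 0.156 for *Spn*, which has more reads.

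Across the 19 libraries, the tested genes most like *Spn* in log2 CPM were *Ppp4c* (Pearson r = 0.961), *Coro1a* (0.952) and *Cdipt* (0.9504), and 20 of its 20 most similar genes lay in the interval. For *LOC308990* they were *Kctd13* (0.946), *Coro1a* (0.929) and *Aldoa* (0.920), with 19 of 20 in the interval. For *AABR07005779.7* they were *Hirip3* (0.798), *Kif22* (0.788) and *Asphd1* (0.781), with 13 of 20 in the interval. For *AABR07005779.6* they were *Ormdl1* (0.803), which lies outside it, *Pagr1* (0.799) and *Invs* (0.763), also outside, with 9 of 20 in the interval. These libraries share the genotypes that set the number of copies, so the correlations are descriptions without a test.

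The markers of leukocytes, the cells known for leukosialin, are given beside it. *Ptprc*, the pan-leukocyte phosphatase CD45, had 4.48 ± 0.484 CPM in wt (SD, n = 6), 4.95 ± 0.814 in Del/+ (n = 4), 4.87 ± 0.679 in Dup/+ (n = 5) and 5.05 ± 0.857 in Del/Dup (n = 4). Of 15 tested microglia genes 0 were called by edgeR in any of the 5 comparisons, with 1 to 3 at an unadjusted p under 0.05 and 0 by DESeq2. Their median log2 changes against wt were -0.08 in Del/+, -0.10 in Dup/+ and -0.03 in Del/Dup. *Ptprc*, which is on that list, lay on the other side of 0, at 0.14, 0.12 and 0.17. Of all tested genes, 18.4% had an unadjusted p under 0.05 in Del/+ against wt, 8.94% in Dup/+, 16.2% in Del/Dup, 13.5% in Del/+ against Dup/+ and 11.5% in the slope, and the unadjusted counts of the gene lists are to be read against these shares. The sum of the microglia genes spanned 366 to 388 CPM over the wt libraries, 306 to 377 over Del/+, 341 to 384 over Dup/+ and 348 to 374 over Del/Dup. Of 15 lymphocyte genes in the files 4 could be tested and 0 were called, with 0 at an unadjusted p under 0.05 and 0 by DESeq2, and their sum spanned 9.59 to 15.6 CPM over the wt libraries, 10.9 to 16.1 over Del/+, 9.14 to 17.8 over Dup/+ and 10.1 to 13.7 over Del/Dup. The ranges of both sums overlapped between wt and each other genotype. Of the other blood genes, the hemoglobin genes *Hba-a2* (2 entries, 0.56 and 0.66, adjusted p = 0.0202 and 0.00365) and *Hbb* (0.76, adjusted p = 0.0380) were higher in Dup/+ against wt, the contrast in which *Spn* rose by 0.64, and *Hba-a2* (0.37 and 0.39 per copy) and *Alas2* (0.34 per copy) rose in the slope. Their part in the *Spn* result was not tested.

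Few genes of the lists of partners, relatives and same-tissue genes of the members passed a test. Of 15 tested partners of leukosialin, among them the actin linkers *Ezr*, *Rdx* and *Msn* and the scaffold *Slc9a3r1*, 0 were called by edgeR in any comparison, with 1 to 4 at an unadjusted p under 0.05 in each. Their median log2 changes against wt were 0.08 in Del/+, 0.02 in Dup/+ and 0.06 in Del/Dup. DESeq2 called 1 of them, the sialyltransferase gene *St3gal1*, in Del/+ (0.34, adjusted p = 0.0466). Of 8 tested genes of the glycerophosphodiesterase and lysophosphatidic acid group, 0 were called against wt, with 2 at an unadjusted p under 0.05 in Del/+, 0 in Dup/+ and 2 in Del/Dup and 0 by DESeq2. *Gdpd5*, a relative of *Gdpd3* named here after its values were seen, was higher in Del/+ than in Dup/+ by 0.55 (SE 0.121, adjusted p = 0.0340), with means of 16.5 and 11.2 CPM against 13.1 CPM in wt. The most abundant gene of that list, *Enpp2*, which makes lysophosphatidic acid, ranged from 93.3 to 120 CPM in wt and from 107 to 393 CPM in Del/+. Its log2 change against wt was 0.96 in Del/+, 0.41 in Dup/+ and 1.03 in Del/Dup (edgeR, adjusted p = 0.106, 0.699 and 0.154). *Enpp2* is also expressed in the choroid plexus.

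Of 12 tested genes of the T-box family and of mesoderm segmentation, led by *Tbr1*, *Dll1*, *Tbx3* and *Tbx18*, 0 were called by edgeR in any comparison, with 0 to 2 at an unadjusted p under 0.05 in each and 0 by DESeq2. *Tbr1*, a factor of cortical excitatory neurons, is one that this tissue uses itself. Of 15 genes of the pancreatic zymogen granule in the files 5 could be tested, and 0 were called by edgeR or DESeq2 in any comparison, with 0 at an unadjusted p under 0.05. The sum of the 15 was 5.91 to 10.3 CPM over the 19 libraries, with 2 to 3 genes at 0 in every library of a genotype.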

How the data were processed

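Hippocampal RNA of 19 male rats was sequenced, 1 library per rat as labelled. The authors prepared stranded libraries, aligned single-end reads with HISAT2 to the rat build Rno6 and counted them per Ensembl gene with HTSeq, and the deposited values are raw counts without normalization. The protocol of the labels describes rRNA removal while another field reads polyA RNA, and the strand setting of the counting is not given in the sources used here. The summary lines of the counting program were left out of the gene totals.

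Counts were fitted in edgeR 4.0.16 (R 4.3.3) with TMM factors, a prior count of 2 and the quasi-likelihood F test over the 15440 genes with 10 or more reads at the median library size in at least 4 libraries, all 4 genotypes in 1 fit, and p-values were adjusted by the method of Benjamini and Hochberg over all of them. The 4 members below the filter were compared in CPM with exact permutation tests (two-sided) and by reads summed per genotype. DESeq2 1.42.0 and the other alternatives are described in the closing section. Libraries were compared in 37 pairs within genotypes, and none agreed within sampling noise, with a chi-square per degree of freedom of 3.51 or more. P-values measure the spread between these libraries. The 8 genes, the gene lists and the tests were chosen with earlier results of these data known. The named genes are the 8 members, their neighbours in level, *Sult1a1* and *Mapk3*, the 3 most similar genes of each tested member, and called or most abundant genes of the lists. *Ptprc* is named in addition, as a marker of all leukocytes. RefSeq gene names (GRCr8) were matched by symbol or gene identifier for 6 of the 8 members. No coordinates of Rno6 were used here.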

Additional observations from a re-analysis of the deposited data

Results flagged for a closer look

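In 32 sets of a gene and a genotype with 4 to 10 libraries, 3 held a library that stood apart from the rest by Dixon's criterion, all of *LOC102552638*. They were Del/+ replicate 1 at 0.173 CPM from 5 reads, Dup/+ replicate 2 at 0.173 CPM from 5 reads, and Del/Dup replicate 3 at 0.105 CPM from 2 reads. Chance marks about 1 in 20 such sets, and the other libraries of these groups held 0 or 1 read, where a single read moves the value.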

How the results depend on the processing

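In Del/+ against wt the count of members called fell from 2 to 0 with a term for high multi-mapped share and to 0 among the low-share libraries, the latter chosen after seeing the data. Both rest on Del/+ replicate 4 as the 1 low-share Del/+ library, and are 1 check rather than 2. The Dup/+ count of 1 was 0 without the filter on low counts, with wt replicate 5 counted as Dup/+, with only the compared groups in the fit, among the low-share libraries, which are those same groups beside Del/+ replicate 4, and with the replicate number as a block, and it ranged from 0 to 1 when single libraries were left out. It was 1 by DESeq2, with the share term, with RLE factors, by library size alone and with the other prior count. Between Del/+ and Dup/+ the count of 3 was 1 with the share term, 1 among the low-share libraries and 1 by DESeq2, which gave no adjusted p to 7 of the 8 members. With the share term the call was lost by *LOC308990* (-1.49, adjusted p = 0.0711) and *AABR07005779.7* (-2.64, adjusted p = 0.0621), and 2 of the 3 slopes were still called, that of *LOC308990* being 0.57 (adjusted p = 0.0719). The causes of these changes were not tested, apart from the fewer samples or genes that the settings themselves bring.

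Directions turned in Del/Dup against wt with the share term for *Spn* (0.22) and *AABR07005779.7* (-0.60). Without single libraries *AABR07005779.6* in Del/Dup ranged from -0.15 to 0.41, and the *Zg16* difference from -0.00117 to 0.0311 CPM in Dup/+ and from -0.0020 to 0.0253 CPM in Del/Dup. With wt replicate 5 counted as Dup/+, *LOC102552638* was 0.0212 CPM higher in Dup/+. None of these values passed a test.

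Replicate numbers did not pair the libraries: over 24 same-numbered pairs the correlations of deviations ran from -0.17 to 0.12, and 0 of 18 libraries was most like one of its own number. With the block, *Spn* in Dup/+ was 0.66 (adjusted p = 0.117). Scaling by library size or RLE factors and another prior count moved no count of members called by more than 1.5 times.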
